A study of Mus musculus with 19 samples.

Results

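The developmental pluripotency associated (Dppa) genes were named for an expression pattern that resembles that of Pou5f1, and 4 of them, Dppa2, Dppa3, Dppa4 and Dppa5a, are described here. They were taken by name from the 54119 genes obtained when the transcript values of the deposited table were summed per gene. RNA was measured by sequencing in 19 libraries of 6 groups, 3 genotypes each in 2 culture states. Mouse embryonic stem cells (mESC) had been grown with LIF and inhibitors of the kinases GSK3 and MEK1/2, a medium that holds them in the naive state of pluripotency. Epiblast-like cells (EpiLC), an in vitro counterpart of the epiblast after implantation, were derived from them by withdrawing LIF and adding Activin A and FGF5 for 5 days. The study asked whether TET3, an enzyme that oxidises methylated cytosine, is required for that step. The XX group (wildtype, line LF2) had 3 mESC and 3 EpiLC libraries. The XY group (wildtype, line E14) also had 3 and 3. The Tet3-/- group (XX, line LF2) had 4 mESC libraries, numbered #1 to #4, and 3 EpiLC libraries, numbered #1, #3 and #4. The labels do not say whether these numbers are clones, or whether replicates came from separate cultures, so the p-values below measure only the spread between these libraries, which may be technical. Sex chromosomes and cell line change together between XX and XY and cannot be told apart.

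DPPA2 and DPPA4 are nuclear proteins with a SAP domain, a DNA-binding fold, and act as a pair on chromatin. In mouse embryonic stem cells they are known for keeping bivalent and germline promoters free of DNA methylation and for activating Dux and the Zscan4 genes of the 2-cell embryo. DPPA3, also called Stella or PGC7, is a maternal and germ cell protein that displaces UHRF1 from chromatin and protects the maternal genome of the zygote from oxidation by TET3. DPPA5A, also called ESG1, carries a KH domain, an RNA-binding fold, and has long served as a marker of undifferentiated cells.

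Over the coding sequences of the GENCODE M21 annotation (GRCm38), global alignment gave 52.9% identical bases for Dppa2 (903 bases) and Dppa4 (732 bases), and 34.0% to 50.2% for the other pairs. Dppa2 and Dppa4 are neighbours on chromosome 16, Dppa2 from 48303908 to 48319723 and Dppa4 from 48283733 to 48294237, both on the plus strand with 9.7 kb between them. Dppa3 lies on chromosome 6 from 122626410 to 122630272 on the plus strand. Dppa5a lies on chromosome 9 from 78367052 to 78368177 on the minus strand. Each of the 4 genes also has a near-copy with 1 exon elsewhere in the genome, annotated as a processed pseudogene, and the sequences below show how alike these are, since a short read can fall on either. The 60 coding bases with the most differences that could be placed in 1 window are shown for each gene and its closest copy, 5′ to 3′, with differing bases in capitals. Positions are counted from 1 at the first base of the start codon, and all are exonic and coding in the Dppa gene. For Dppa2 the window covers positions 62 to 121, and its copy Gm9788 lies on chromosome 19 from 41459813 to 41460718.
Dppa2: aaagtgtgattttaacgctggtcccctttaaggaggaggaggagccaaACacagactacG
Gm9788: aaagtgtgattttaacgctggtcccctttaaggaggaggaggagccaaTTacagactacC
For Dppa3 the window covers positions 118 to 177, and the copy Dppa3-ps lies on chromosome X from 37625647 to 37626097.
Dppa3: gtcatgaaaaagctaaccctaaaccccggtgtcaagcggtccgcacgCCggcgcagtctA
Dppa3-ps: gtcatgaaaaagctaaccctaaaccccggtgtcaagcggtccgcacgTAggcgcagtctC
For Dppa4 the window covers positions 1 to 60, and the copy Gm14058 lies on chromosome 2 from 122214620 to 122215354.
Dppa4: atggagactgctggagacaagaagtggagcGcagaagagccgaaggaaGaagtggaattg
Gm14058: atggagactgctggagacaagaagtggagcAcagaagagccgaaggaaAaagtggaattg
For Dppa5a the window covers positions 196 to 255, and the copy Gm6083 lies on chromosome 5 from 29538153 to 29538509.
Dppa5a: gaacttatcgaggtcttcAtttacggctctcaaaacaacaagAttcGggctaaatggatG
Gm6083: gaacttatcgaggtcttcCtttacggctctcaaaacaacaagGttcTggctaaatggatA

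By local alignment the copies were 99.3% (Gm9788), 98.2% (Dppa3-ps), 98.9% (Gm14058) and 96.9% (Gm6083) identical to their genes. The alignment covered 448 of the 450 coding bases of Dppa3 and the whole coding sequence of the others. Of all 31-base windows of the main transcripts, 42.1% of Dppa2-201, 31.8% of Dppa3-201, 44.3% of Dppa4-202 and 57.2% of Dppa5a-201 also occurred in transcripts of other genes. The TPM credited to the copies was low: at most 1.03 for Gm9788, 0.111 for Dppa3-ps, 1.89 for Gm14058 and 0.0821 for Gm6083 in any library. The gene with the most windows in common with Dppa5a-201 was however the protein-coding Pigp, with 134 windows against 129 for Gm6083, and Pigp had a median of 13.6 and at most 27.2 TPM. Adding the pseudogene copies with the most shared windows back to each gene changed 1 call, that of Dppa2 between XX and XY EpiLC (below). Pigp, and genes that shared fewer windows with Dppa2 or Dppa5a, were not added.

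Tet3 was checked first against the labels. It had 0.536 to 1.06 TPM (a transcript level divided by length, scaled so that each library sums to 1000000) in XX mESC and 0.532 to 0.916 in Tet3-/- mESC, and 1.21 to 1.90 in XX EpiLC against 0.693 to 1.42 in Tet3-/- EpiLC. Neither difference passed the test (limma, Benjamini-Hochberg adjusted p = 0.885 and 0.525), and what part of Tet3 was deleted is not given in the sources used here, so its RNA level does not check the label. TPM keeps no sequencing depth, so depth is unknown. Nuclear protein-coding genes held 21.4% to 46.7% of TPM per library, with 28.9% to 30.9% in XX EpiLC and 44.6% to 46.7% in XY EpiLC. The median log2 difference of the 14972 genes tested was 0.14 in the XX transition, 0.54 in the XY transition, -0.13 in the Tet3-/- transition and -0.58 between XX and XY EpiLC, and median-of-ratios scaling brought these to between -0.02 and 0. With that scaling, the share of called genes that were higher moved from 61.2% to 48.6% in the XX transition, from 81.5% to 51.3% in the XY transition, from 45.4% to 56.5% for XX against XY mESC and from 11.1% to 50.9% for XX against XY EpiLC. It moved from 82.2% to 55.6% and from 11.2% to 45.8% for Tet3-/- mESC and EpiLC against those of XX, from 0% to 37.4% for the Tet3-/- against the XX transition, and from 22.5% to 46% for the XX against the XY transition. In the Tet3-/- transition it moved from 38.7% to 51.5% with quantile normalization. Scaled values are given below wherever a Dppa gene changes its direction or its call.

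The EpiLC label was borne by 6 of 6 formative markers, which rose in the XY transition, 5 of 6 in the Tet3-/- transition and 4 of 6 in the XX transition, where Otx2 fell. The summed level of these markers was 40.2 to 47.8 TPM in XX EpiLC, 44.0 to 162.5 in Tet3-/- EpiLC and 259.9 to 329.5 in XY EpiLC. Tet3-/- EpiLC #3 stood apart from the other mutant EpiLC libraries, with 43.7 TPM of Fgf5 against 3.6 and 3.58, and results are given with and without it where it matters. Of markers of cell types other than the labelled ones, 6 primitive endoderm markers summed to 0.542 to 10.8 TPM, 6 trophoblast markers to 2.70 to 21.4, and 6 fibroblast markers to 0.687 to 9.88. One trophoblast and 1 fibroblast marker were listed at 0 in all XX EpiLC libraries. Of the 2 primitive endoderm markers tested, 1 fell in the XX transition and 1 rose in the XY transition. Of the 4 trophoblast markers tested, 1 fell in XX, 1 rose and 2 fell in XY, and 1 rose and 1 fell in Tet3-/- cells. The 1 fibroblast marker tested, Thy1, rose in XX and XY cells. The highest primitive endoderm and trophoblast sums were both in Tet3-/- EpiLC #3, which had 17.4 TPM of Eomes against 1.87 and 2.26 in #1 and #4, 3.37 of Sox17 against 0 (as listed) and 0.0935, and 2.09 of Gata6 against 0.0865 and 0.0804. Eomes alone made up most of that trophoblast sum. Gata3 (1.81 TPM in #3 against 1.82 and 1.44), Dab2 (2.54 against 4.02 and 2.03) and Elf5 (0.0114 against 0.151 and 0.0726) did not follow. The other markers of both lists were highest in #3 among the mutant EpiLC libraries. The part of other cell types in the Dppa values, those of Dppa2 in #3 among them, was not tested. In such bulk samples, fewer cells that express a gene and less RNA per cell cannot be told apart.

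Dppa5a was by far the most abundant of the 4 RNAs. Its level was 1499, 3145 and 1975 TPM in XX mESC, 1776, 2713, 2179 and 1727 in Tet3-/- mESC, and 1781, 2019 and 2182 in XY mESC. It ranked between 7 and 21 among 21793 protein-coding genes in these 10 libraries, and the 3 genotypes overlapped. In EpiLC it was 751, 761 and 819 TPM in XX, 205, 194 and 322 in Tet3-/-, and 98.0, 98.5 and 96.4 in XY. The EpiLC groups did not overlap with each other or with any mESC group, and the rank fell to 58 to 62 in XX, 113 to 260 in Tet3-/- and 526 to 653 in XY.

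Dppa3 was high in every mESC library and near 0 in most EpiLC libraries. Its level was 65.5, 35.2 and 81.5 TPM in XX mESC, 76.1, 31.5, 51.4 and 62.0 in Tet3-/- mESC, and 13.5, 79.6 and 16.8 in XY mESC. In XY mESC, library 2 was apart from the other XY libraries and at the level of the XX and Tet3-/- cells. In EpiLC, Dppa3 was 2.84, 2.77 and 2.94 TPM in XX, 1.18, 0.595 and 0.686 in Tet3-/-, and 0.174, 0 (as listed) and 0.180 in XY. These 3 groups did not overlap, in the same order as for Dppa5a. Its main transcript Dppa3-201 was listed at 0 in all 3 XY EpiLC libraries, and the values in libraries 1 and 3 were assigned to Dppa3-202. Whether such low values come from that transcript was not tested.

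Dppa2 had the lowest mean of the 4 in the mESC groups and in XX EpiLC, while in XY and Tet3-/- EpiLC that of Dppa3 was lower still. It had 1.66, 4.70 and 2.49 TPM in XX mESC, 3.64, 4.29, 4.00 and 4.00 in Tet3-/- mESC, and 9.86, 5.50 and 13.1 in XY mESC, so XY mESC lay above both LF2 groups. In EpiLC it had 1.80, 1.62 and 1.62 TPM in XX, 0.259, 3.06 and 0.588 in Tet3-/-, and 0.347, 0.457 and 0.471 in XY. Mutant #3 held the 1 Tet3-/- EpiLC value above those of XX EpiLC.

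Dppa4, the partner of Dppa2, followed another course. It had 4.87, 12.0 and 8.60 TPM in XX mESC, 10.1, 9.23, 11.3 and 12.0 in Tet3-/- mESC, and 24.8, 16.2 and 34.5 in XY mESC. In EpiLC it had 22.1, 24.0 and 25.8 TPM in XX, 11.9, 13.8 and 14.2 in Tet3-/-, and 21.4, 26.4 and 30.0 in XY. It was thus the 1 gene of the 4 whose EpiLC means were all above the mESC means of the same genotype in TPM, though the XY direction turned with each scaling (below). Within XX mESC and within XY mESC the libraries kept 1 order for Dppa2 and Dppa4, which was also the order of their protein-coding share of TPM (21.4%, 27.5% and 41.5% in XX replicates 1, 3 and 2, and 30.1%, 35.0% and 43.2% in XY replicates 2, 1 and 3). After median-of-ratios scaling Dppa4 ranged from 8.13 to 11.4 TPM in XX mESC, against 4.87 to 12.0 before it.

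**Figure D1:**
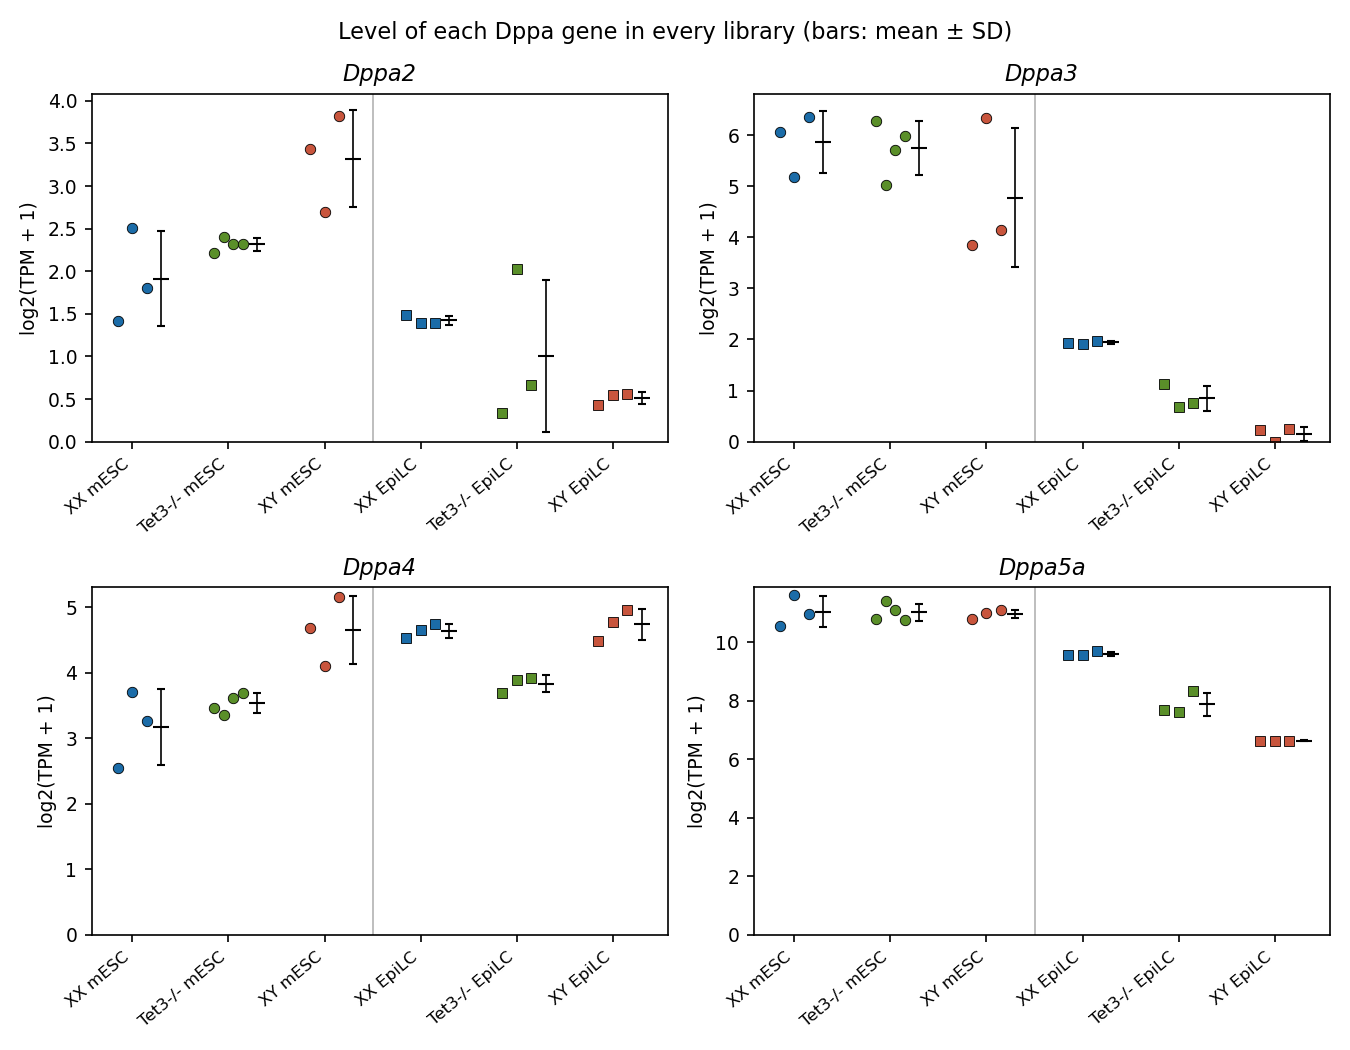
Level of the 4 Dppa genes as log2(TPM + 1) in each of the 19 libraries (circles mESC, squares EpiLC), with the mean and SD of each group as bars. Dppa3 and Dppa5a drop in every genotype with no overlap between mESC and EpiLC, Dppa4 does not, and Tet3-/- EpiLC #3 lies apart for Dppa2.

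Going from mESC to EpiLC in XX cells, Dppa3 and Dppa5a fell, Dppa4 rose and Dppa2 did not pass the test. Differences are in log2(TPM + 1), where the change of a low gene appears smaller than it was, and p-values are from limma with Benjamini-Hochberg adjustment over all genes tested. Dppa3 fell by 3.92 (SE 0.47, adjusted p = 2.85e-06), from a mean of 60.7 ± 23.5 TPM to 2.85 ± 0.0872 (SD, n = 3 libraries each). Dppa5a fell by 1.44 (SE 0.25, adjusted p = 0.000206), a 2.84-fold lower mean. Dppa4 rose by 1.47 (SE 0.28, adjusted p = 0.000403), a 2.82-fold higher mean. Dppa2 had a difference of -0.49 (95% interval -1.22 to 0.25, adjusted p = 0.333), and passed the test with median-of-ratios scaling (-0.64, adjusted p = 0.0309) and quantile normalization (-0.65, adjusted p = 0.0408). In this comparison 3 of the 4 genes were called, against 31.3% of all genes tested. The 3 were also the ones whose XX groups did not overlap, as was true of 46.3% of all genes.

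In XY cells Dppa2, Dppa3 and Dppa5a all fell, and Dppa4 was the 1 gene not called. Dppa5a fell by 4.33 (SE 0.25, adjusted p = 2.06e-10), a 20.4-fold lower mean. Dppa2 fell by 2.81 (SE 0.35, adjusted p = 2.69e-06), and its mean went from 9.50 ± 3.84 to 0.425 ± 0.0676 TPM (SD, n = 3 each). Dppa3 fell by 4.62 (SE 0.47, adjusted p = 2.10e-07), by 3.85 without XY mESC library 2, the high one, and by 7.06 with a pseudocount of 0.1. Dppa4 had a difference of 0.09 (95% interval -0.49 to 0.67, adjusted p = 0.8). Its direction turned with every scaling tried: -0.55 with median-of-ratios scaling (adjusted p = 0.0153), -0.44 with quantile normalization (adjusted p = 0.0425) and -0.25 with TPM rescaled over nuclear protein-coding genes (adjusted p = 0.245). It also turned to -0.18 without XY mESC library 2 and to -0.0154 without XY EpiLC library 3. The 3 genes called stand against 50.5% of all genes, with 9.36% of all genes called lower. The same 3 had XY groups without overlap, against 57% of all genes.

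In Tet3-/- cells Dppa2, Dppa3 and Dppa5a fell as well. Dppa3 fell by 4.89 (SE 0.44, adjusted p = 5.70e-08) and Dppa5a by 3.14 (SE 0.24, adjusted p = 6.22e-09), an 8.73-fold lower mean. Dppa2 fell by 1.31 (SE 0.33, adjusted p = 0.00401), by 1.82 without mutant EpiLC #3, by 0.97 without mutant EpiLC #1 (adjusted p = 0.0414), and by 2.15 with a pseudocount of 0.1. Dppa4 had a difference of 0.30 (95% interval -0.24 to 0.84, adjusted p = 0.418), which passed the test as an increase with each of the 3 scalings (0.47, 0.42 and 0.49, adjusted p = 0.0257, 0.0392 and 0.0182). On the deposited scale 3 of 4 genes were called, against 35.1% of all genes, with 21.5% called lower. The mESC and EpiLC groups of these 3 genes did not overlap, as was true of 36.4% of all genes.

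In mESC no Dppa gene was called different between Tet3-/- and XX cells. The log2 differences, Tet3-/- minus XX, were 0.41 for Dppa2 (95% interval -0.28 to 1.09), -0.12 for Dppa3 (-1.04 to 0.80), 0.36 for Dppa4 (-0.18 to 0.90) and -0.03 for Dppa5a (-0.52 to 0.47), with limma adjusted p from 0.739 to 0.977. Of all genes, 0.601% were called in this comparison. The intervals still allow changes of up to about 1 log2 unit for Dppa2 and Dppa3, and the groups overlapped for all 4 genes, while 9.21% of all genes had groups without overlap.

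In EpiLC, Dppa5a was lower in Tet3-/- than in XX cells. Its means were 240.3 ± 70.7 and 777 ± 36.5 TPM (SD, n = 3 each), a 3.23-fold difference, and the log2 difference was -1.73 (SE 0.25, 95% interval -2.26 to -1.20, adjusted p = 0.00161 by limma). It was 1 of 4 Dppa genes called, against 1.08% of all genes. A fit of only these 2 groups, with 6 libraries, has the same difference by construction, and gave an adjusted p of 0.0612. Leaving out any 1 of the 6 libraries kept it between -1.96 and -1.59 with adjusted p from 0.000991 to 0.0172.

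The other 3 genes had lower means in Tet3-/- EpiLC but did not pass the test on the deposited scale. Dppa4 had a difference of -0.81 (95% interval -1.39 to -0.23, limma adjusted p = 0.238), with all 3 mutant libraries below all XX libraries. It passed with each scaling: -0.70, -0.90 and -0.73 with median-of-ratios scaling, rescaled TPM and quantile normalization (adjusted p = 0.0291, 0.00615 and 0.0185). Dppa3 had a difference of -1.09 (95% interval -2.08 to -0.11, adjusted p = 0.428), also without overlap between the groups. Dppa2 had -0.42 (95% interval -1.15 to 0.32, adjusted p = 0.908), with -0.92 (adjusted p = 0.120) without mutant #3 and -0.0776 (adjusted p = 1) without mutant #1. Groups that did not overlap were found for 3 of 4 Dppa genes and for 15.8% of all genes.

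The difference between the Tet3-/- and the XX transition was tested directly. Dppa5a had a difference of differences of -1.70 (95% interval -2.42 to -0.97, limma adjusted p = 0.0562), which did not pass. It passed with TPM rescaled over nuclear protein-coding genes (-1.55, adjusted p = 0.0216), without XX mESC library 2 (-1.99, adjusted p = 0.00402) and without mutant EpiLC #4 (-1.93, adjusted p = 0.0315). Dppa4 had -1.17 (95% interval -1.96 to -0.37, adjusted p = 0.377) and passed with rescaled TPM alone (-1.10, adjusted p = 0.0455). Dppa2 had -0.82 and Dppa3 -0.97, with adjusted p of 0.738 and 0.779. Of all genes, 0.174% were called here, and the transition of Dppa5a was the steeper in mutant cells by these values without being called different.

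**Figure D2:**
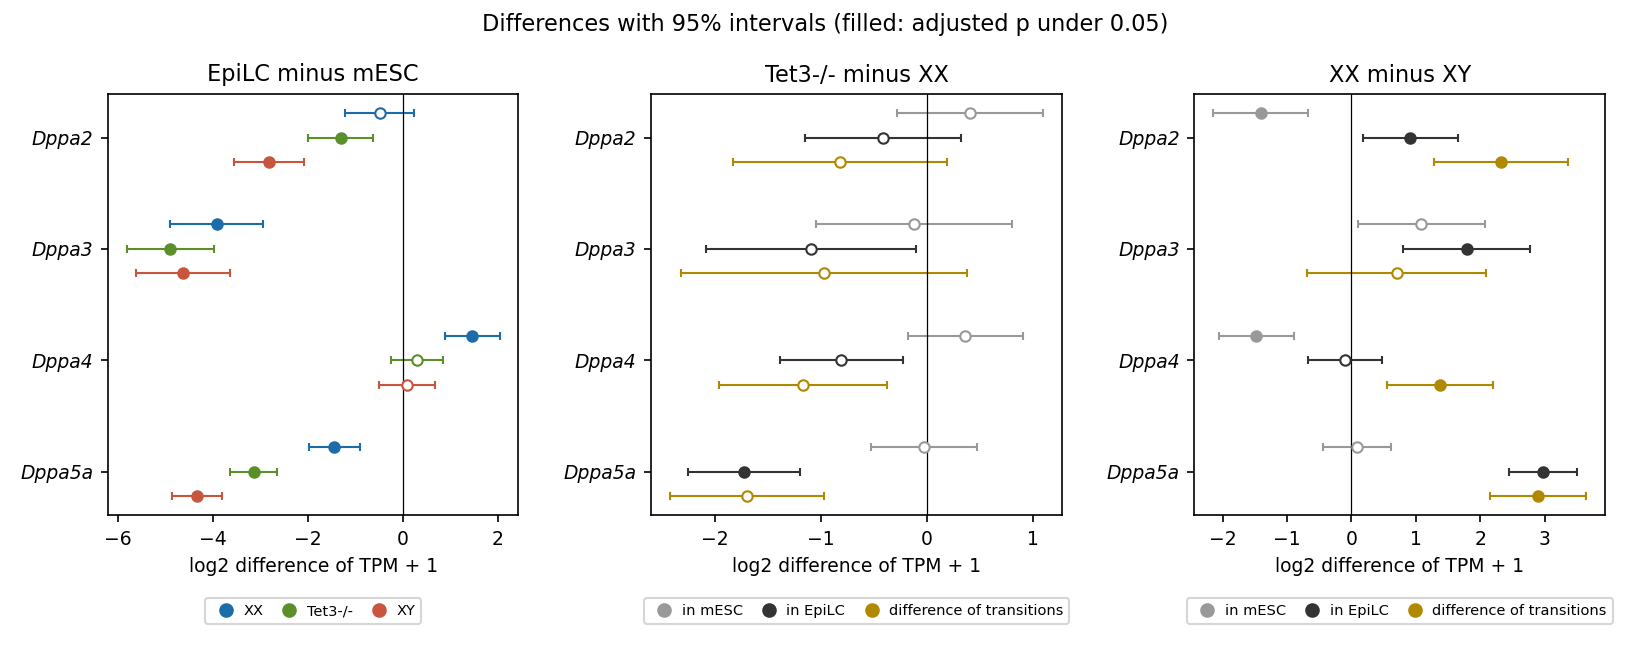
Log2 differences of TPM + 1 with 95% intervals for each Dppa gene, left for EpiLC minus mESC in each genotype, centre for Tet3-/- minus XX, right for XX minus XY, the last pair also as the difference between transitions. Filled points passed an adjusted p of 0.05: on the deposited TPM scale Dppa5a alone passes for Tet3-/- against XX, in EpiLC.

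Between the wildtype lines, the pair Dppa2 and Dppa4 differed in mESC. Dppa2 was lower in XX than in XY mESC by a log2 difference of -1.41 (SE 0.35, limma adjusted p = 0.0104) and Dppa4 by -1.48 (SE 0.28, adjusted p = 0.00115), with means 3.22-fold and 2.96-fold lower. Both calls were lost in a fit of only these 2 groups (adjusted p = 0.107 and 0.0908), and that of Dppa2 also without XX library 1 (-1.16, adjusted p = 0.0666) or XY library 3 (-1.16, adjusted p = 0.0635). Dppa5a had a difference of 0.08 (95% interval -0.45 to 0.61, adjusted p = 0.864). Dppa3 had 1.09 (95% interval 0.10 to 2.07, adjusted p = 0.139), which passed without XY library 2 (1.86, adjusted p = 0.00103) and without XX library 2 (1.43, adjusted p = 0.0491). The 2 called genes compare with 14.2% of all genes. They were also the 2 without overlap between the lines, against 22.1% of all genes.

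In EpiLC 3 of the 4 genes were higher in XX, and Dppa2 had turned its direction. Dppa5a was higher in XX than in XY EpiLC by 2.98 (SE 0.25, limma adjusted p = 1.29e-07), a 7.96-fold higher mean. Dppa3 was higher by 1.79 (SE 0.47, adjusted p = 0.00651) and Dppa2 by 0.91 (SE 0.35, adjusted p = 0.0410). The call of Dppa2 was a narrow one at levels below 2 TPM: it was lost without a filter on low values (adjusted p = 0.0930), with the pseudogene copies added (0.75, adjusted p = 0.0702) and without any 1 of the 6 libraries (0.87 to 0.94). With each of the 3 scalings it was kept, at 1.13 with median-of-ratios scaling and 1.79 with rescaled TPM, and a pseudocount of 0.1 gave 1.77. Dppa3 likewise had 3.09 with rescaled TPM and 3.90 with that pseudocount. Dppa4 had -0.10 (95% interval -0.68 to 0.48, adjusted p = 0.783) and turned to a called difference in favour of XX with each scaling, 0.61, 0.50 and 0.55 (adjusted p = 0.0142, 0.0382 and 0.0202). Called genes made up 3 of 4 Dppa genes and 47.2% of all genes, and 5.23% of all genes were called higher in XX. Groups without overlap were likewise those of Dppa2, Dppa3 and Dppa5a, and of 75.7% of all genes.

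The XX and XY transitions differed for 3 of the 4 genes, against 16% of all genes tested. Dppa5a had a difference of differences of 2.90 (SE 0.36, limma adjusted p = 2.47e-05), Dppa2 2.32 (SE 0.50, adjusted p = 0.00331) and Dppa4 1.38 (SE 0.39, adjusted p = 0.0218). That of Dppa4 lost its call without XX EpiLC library 3 (1.32, adjusted p = 0.0517) or XY EpiLC library 1 (1.25, adjusted p = 0.0523). Dppa3 had 0.70 (95% interval -0.69 to 2.10, adjusted p = 0.510), which was called with a pseudocount of 0.1 in place of 1 (2.78, adjusted p = 0.0226) and turned to -0.0755 without XY mESC library 2. These comparisons use the same XX libraries as the comparisons with Tet3-/- above, so the 2 sets are not independent.

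Since DPPA2 and DPPA4 act as a pair, their RNA ratio was read in each library. In mESC, Dppa4 had 2.55 to 3.45 times the TPM of Dppa2 in XX, 2.15 to 2.99 times in Tet3-/- and 2.51 to 2.95 times in XY libraries, so the ratio was alike although XY cells had more of both. In EpiLC the ratio was 12.3 to 15.9 in XX and 57.9 to 63.7 in XY, where Dppa2 was below 1 TPM in all 3 libraries. It was 45.8 and 24.1 in Tet3-/- EpiLC #1 and #4, where Dppa2 was also below 1 TPM, and 4.51 in #3. The ratio does not change with the scale of a library. It is a description, with no test.

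The 2 transcripts of Dppa2 held different shares of its level in the groups, a description with no test. Dppa2-201 (1948 bases, 7 exons) starts at 48310477 and Dppa2-202 (2447 bases, 8 exons) starts upstream at 48303908, and both end at 48319723. Dppa2-201 held 83.0% to 86.4% of Dppa2 in XY mESC, 65.0% to 73.3% in XX mESC and 75.1% to 81.3% in Tet3-/- mESC. It was listed at 0 in all 3 XY EpiLC libraries and in Tet3-/- EpiLC #1, where Dppa2-202, at 0.259 to 0.471 TPM, was all that remained. Dppa2-202 shares 31-base windows with transcripts of 218 other genes, Dppa2-201 with 13. Whether these low values come from the gene itself was not tested. Dppa4 was mostly Dppa4-202 throughout, at 60.1% to 92.5% of its TPM, and Dppa5a has 1 annotated transcript of 619 bases.

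**Figure D3:**
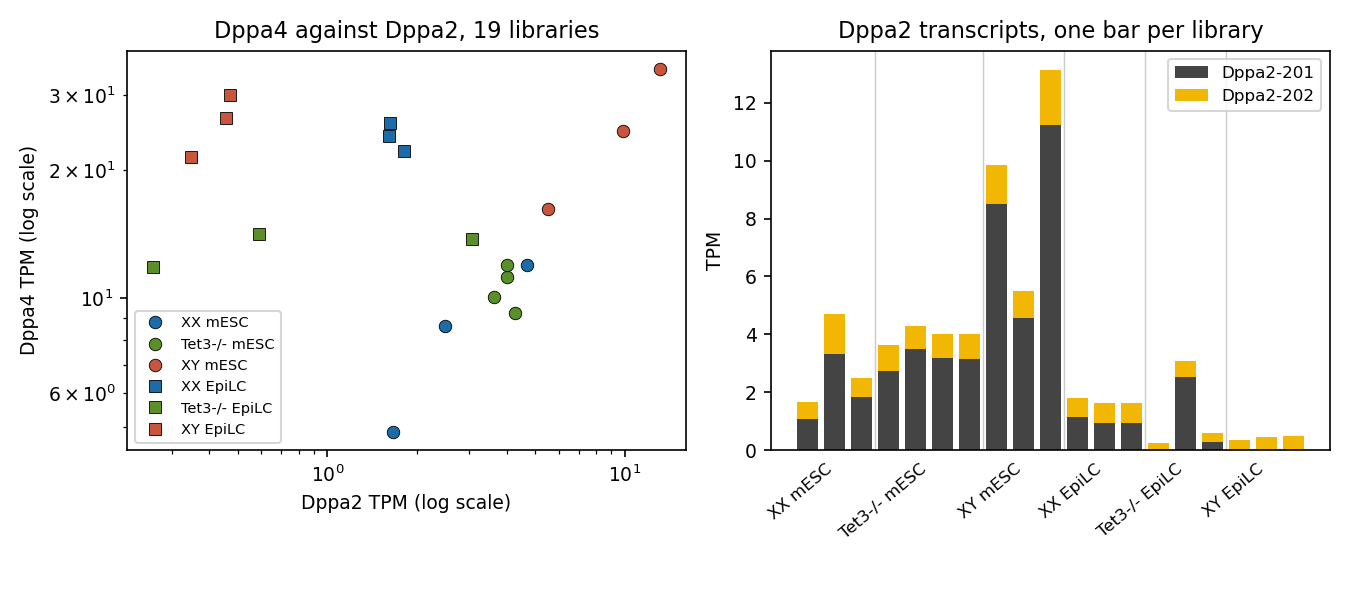
Left, Dppa4 against Dppa2 in TPM on log axes in the 19 libraries (circles mESC, squares EpiLC). Right, TPM of the transcripts Dppa2-201 and Dppa2-202 in each library, stacked: the mESC libraries lie along 1 ratio of 2.15 to 3.45, and Dppa2-201 is listed at 0 in the XY EpiLC libraries.

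Genes linked to DPPA2 and DPPA4 in embryonic stem cells were mostly too low to test: 3 of 12 passed the filter on low values. Duxf3, the mouse Dux gene, had at most 0.542 TPM, and Zscan4c at most 0.687. Syce1, a meiotic synaptonemal complex gene, fell in all 3 transitions, by 3.05 in XX, 1.79 in XY and 3.61 in mutant cells (limma adjusted p = 4.61e-08, 1.60e-05 and 1.52e-09). Mael, a piRNA pathway gene, rose in the Tet3-/- transition by 0.84 (adjusted p = 0.00264) and was higher in Tet3-/- than in XX EpiLC by 0.99 (adjusted p = 0.0261), and in XX than in XY mESC by 0.77 (adjusted p = 0.0194). Zscan4f was called in no comparison. Syce1 was higher in XX than in XY mESC by 1.72 (adjusted p = 0.000154), the opposite direction to Dppa2 and Dppa4 there.

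Of the 10 DNA methylation and histone methylation genes listed beside Dppa3, all were tested. Of these, 3 rose and 1 fell in the XX transition, 5 rose and 2 fell in the XY transition, and 2 rose and 2 fell in Tet3-/- cells. The de novo methyltransferases Dnmt3a and Dnmt3b rose in all 3 transitions, Dnmt3a by 1.79, 2.68 and 2.14 and Dnmt3b by 2.17, 3.75 and 2.20 (limma adjusted p from 1.13e-07 to 0.000768), as Dppa3 fell. Uhrf1, which encodes the protein that DPPA3 displaces, had differences of -0.38, 0.06 and -0.51 and passed the test in none of the 9 comparisons. The XY value was negative with each scaling. Dnmt3l, a cofactor of the de novo enzymes, fell in the XY transition by 2.35 (adjusted p = 0.000635) and had 0.93 and -0.32 in the others (adjusted p = 0.173 and 0.652). The median over the list was 0.45 (XX), 1.09 (XY) and -0.34 (Tet3-/-), beside 0.14, 0.54 and -0.13 over all genes.

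Dppa3 sits in a cluster of pluripotency genes on chromosome 6, and these did not move as 1. Gdf3, a TGF-beta family ligand 16.3 kb away, fell in all 3 transitions, by 1.06 in XX, 1.64 in XY and 1.95 in mutant cells (limma adjusted p = 0.0167, 0.000353 and 4.14e-05). Nanog, 77.2 kb away, fell by 1.99 in XX and 3.04 in Tet3-/- (adjusted p = 6.80e-05 and 1.51e-07) and had -0.69 in XY (adjusted p = 0.0758), where it passed with each scaling. Apobec1, a cytidine deaminase gene 24.0 kb away, rose in all 3, by 1.05 in XX, 1.16 in XY and 0.49 in Tet3-/- (adjusted p = 0.000120, 2.56e-05 and 0.0266). Slc2a3, a glucose transporter gene 97.5 kb away, rose in XY by 0.66 (adjusted p = 0.0242), turning to -0.02 with median-of-ratios scaling. Of these, Apobec1 alone was called lower in Tet3-/- than in XX EpiLC on the deposited scale (-0.82, adjusted p = 0.0261). That call was lost with median-of-ratios scaling (-0.71, adjusted p = 0.0648) and quantile normalization (-0.69, adjusted p = 0.0591). Gdf3 and Nanog, not called there as deposited (-0.67 and -0.82, adjusted p = 0.518 and 0.340), were called lower with each of the 3 scalings. With median-of-ratios scaling they had -0.61 and -0.71 (adjusted p = 0.0395 and 0.00365).

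Ooep, a KH-domain gene of the maternal subcortical complex, lies 7.9 kb from Dppa5a and was called in the same comparisons and directions as Dppa5a on the deposited scale. With median-of-ratios scaling it was also called between Tet3-/- and XX mESC (-0.57, limma adjusted p = 0.0295) and between XX and XY mESC (0.89, adjusted p = 0.000182). It had 17.9, 36.5 and 23.2 TPM in XX mESC, 18.1, 19.7, 23.4 and 19 in Tet3-/- mESC, and 14.6, 14.3 and 18.7 in XY mESC. In EpiLC it had 3.65, 4.08 and 4.25 TPM in XX, 0.870, 1.60 and 1.31 in Tet3-/-, and 0.469, 0.652 and 0.694 in XY, again 3 groups without overlap. Ooep fell by 2.37 in XX, 3.39 in XY and 3.23 in Tet3-/- cells (limma adjusted p = 1.55e-07, 9.56e-10 and 9.25e-10). It was lower in Tet3-/- than in XX EpiLC (-1.16, adjusted p = 0.0140) and higher in XX than in XY EpiLC (1.64, adjusted p = 2.52e-05). Of the 7 KH-domain and maternal complex genes listed, 3 passed the filter on low values, Ooep, Khdc3 and Tle6, and all 3 fell in all 3 transitions. Khdc3 and Tle6 were not called between Tet3-/- and XX EpiLC (-0.27 and -0.38, adjusted p = 0.715 and 0.876).

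**Figure D4:**
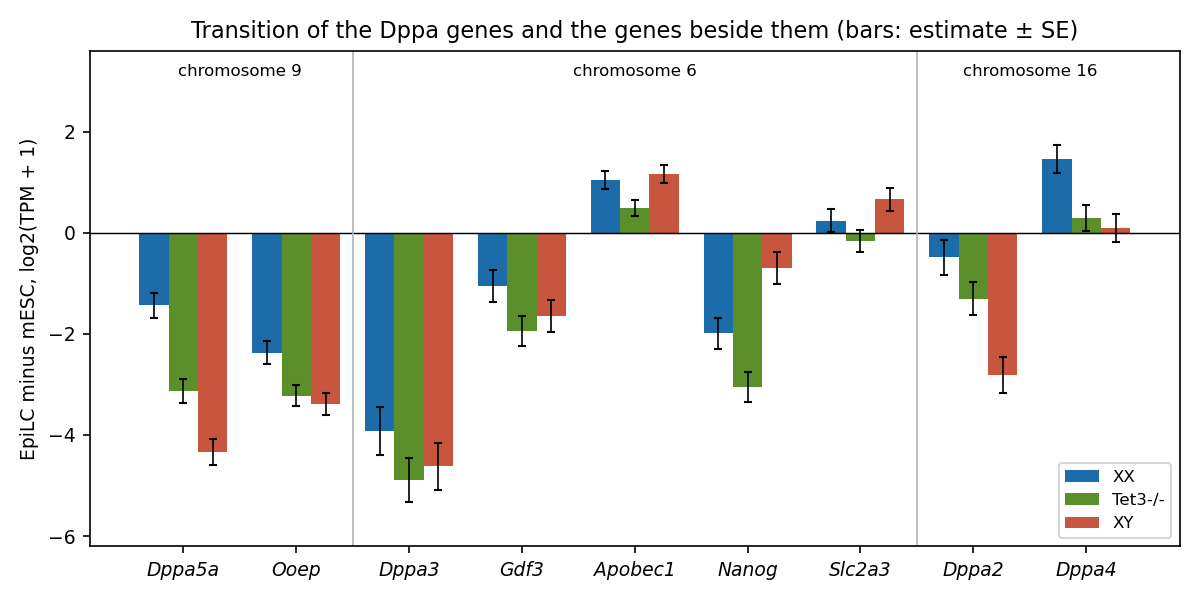
EpiLC minus mESC as a log2 difference of TPM + 1 with its SE, for the Dppa genes and the genes beside them, grouped by chromosome and coloured by genotype. Dppa5a and Ooep go down together, Apobec1 goes up beside Dppa3, and Dppa2 and Dppa4 differ although only 9.7 kb lie between them.

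Other pluripotency genes give the setting for these changes. Of 11 naive transcription factors, 10 fell in each of the 3 transitions, all but Klf5 in XX and Tet3-/- and all but Nanog in XY, and the list medians were -2.84, -4.24 and -3.68 in XX, XY and Tet3-/-. Esrrb fell by 2.84, 5.42 and 4.66 (limma adjusted p = 2.75e-06, 4.78e-10 and 1.75e-09), and was lower in Tet3-/- than in XX EpiLC (-1.70, adjusted p = 0.0168), as Dppa5a was. In that comparison it was 1 of 11 naive factors called on the deposited scale, and 8 of 11 were called lower with each of the 3 scalings. The other 7 were Klf2, Klf5, Nanog, Nr0b1, Nr5a2, Tfcp2l1 and Zfp42, with differences from -1.34 (Klf5) to -0.65 (Klf2) under median-of-ratios scaling (adjusted p = 0.00707 and 0.0292). Of all 14972 genes tested, 143 were called lower in Tet3-/- than in XX EpiLC on the deposited scale. With median-of-ratios scaling, rescaled TPM and quantile normalization, 443, 590 and 488 were. Of 5 general pluripotency factors, 2 rose and 1 fell in XX and in mutant cells, and 3 rose and 1 fell in XY cells. Pou5f1, for whose pattern the Dppa genes were named, was not called in any transition (-0.35, -0.06 and -0.57, adjusted p = 0.496, 0.898 and 0.189) on the deposited scale. It passed as a decrease with median-of-ratios scaling in XX (-0.57, adjusted p = 0.0301) and XY (-0.74, adjusted p = 0.00696). A decrease also passed with quantile normalization in XX (-0.52, adjusted p = 0.0417) and with rescaled TPM in Tet3-/- cells (-0.46, adjusted p = 0.0496). Of 6 primordial germ cell markers, whose cells also express Dppa3, 2 rose and 2 fell in XX, 1 rose and 1 fell in XY, and 1 rose and 3 fell in mutant cells, and Dazl fell in all 3 transitions by 5.19, 3.29 and 6.03. Their summed level was 39.7 to 112 TPM in XX mESC, 14.2 to 17.6 in XY mESC and 82.1 to 171 in Tet3-/- mESC, and 5.97 to 19.9 in all EpiLC libraries. Dazl alone made up much of the mESC sums, at 17.7 to 94.9 TPM in XX, 8.10 to 11.6 in XY and 60.3 to 149.9 in Tet3-/-. The 2 markers that rose in XX were low. Ddx4 had a mean of 0.897 TPM in XX mESC and 2.55 in XX EpiLC, and Dnd1 0.560 and 3.13. The part of primordial germ cells in the level of Dppa3 was not tested.

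Over all 19 libraries, the genes most like each Dppa gene were sought by Pearson r of log2(TPM + 1) among 9508 protein-coding genes with a mean of at least 5 TPM in a group. Dppa5a was most like Cd9 (r = 0.980), a tetraspanin gene, Gpa33 (0.974) and Esrrb (0.968). Dppa3 was most like Fbxo15 (0.969), Hormad1 (0.968), a meiotic chromosome axis gene, and Car8 (0.964). Dppa2 was most like Rbmxl2 (0.976), Ass1 (0.970), the argininosuccinate synthase gene, and AI467606 (0.958). Dppa4 was most like Gclm (0.949), Gpd2 (0.929) and Mgat4b (0.927). The Dppa genes themselves were left out of the search, and r describes libraries that share groups and scale.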

How the data were processed

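The deposited table held TPM for 140948 transcripts in 19 libraries of rRNA-depleted, stranded total RNA, per the labels' protocols, and each deposited column summed to 1000000. The submitters' processing notes name FastQC 0.11.7, Trimmomatic 0.35, Salmon 1.1.0 and GRCm38. The annotation is not given in the sources used here. TPM was summed per gene with GENCODE M21. With their version 139357 transcripts matched and without it 495, and 1096 were left out, which held at most 0.215% of TPM.

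In R 4.3.3, limma 3.58.1 modelled the log2(TPM + 1) values of 14972 genes with at least 1 TPM in at least 3 libraries, over all 6 groups, with eBayes with a trend and 9 contrasts. P-values were adjusted by Benjamini-Hochberg within each contrast and called under 0.05. The fit was tested on simulated data. Sequences were compared with Python 3.11.15 and Biopython 1.88.

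The 4 members and the 11 gene lists (genes linked to DPPA2 and DPPA4, methylation genes, the Dppa3 locus, KH-domain genes, naive, general pluripotency and formative genes, and germ cell, primitive endoderm, trophoblast and fibroblast markers) were chosen with earlier results of these data known. Besides the members, named genes are list genes called in a comparison or whose role is described, Tet3, and the 3 genes most alike. Alternatives were another pseudocount and filters, 3 scalings, a replicate block, fits restricted to the groups of a comparison, no trend in eBayes, and each library left out. Adding pseudogene copies was chosen after the data were seen.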

Additional observations from a re-analysis of the deposited data

Results flagged for a closer look

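The XX and XY transitions differed, by the test of the difference itself, for 3 Dppa genes. The log2 difference of differences, XX minus XY, was 2.90 for Dppa5a, 2.32 for Dppa2 and 1.38 for Dppa4 (limma with Benjamini-Hochberg adjustment, adjusted p = 2.47e-05, 0.00331 and 0.0218). Dppa5a fell in both lines and further in XY, Dppa2 was called in XY only, and Dppa4 was called in XX only, as a rise, all on the deposited scale.

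In the group of 4 Tet3-/- mESC libraries, 1 library was far from the others, by Dixon's criterion at 95%, for 3 genes named beside the Dppa genes. The library apart was #2 for all 3 genes, so these are not separate observations. It had 3.50 TPM of Apobec1, 1.04 TPM of the trophoblast marker Gata3 and 18.6 TPM of Hormad1. Chance gives such a library in about 1 of 20 groups for each gene examined, and many more genes than these 3 were examined. No Dppa gene met the criterion. Groups of 3 libraries were not examined in this way.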

How the results depend on the processing

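For the 36 differences of the 4 Dppa genes, 360 values came from alternatives other than leaving out a library. Of these, 338 kept direction and side of the threshold, 5 lost and 11 gained a call, and 6 reversed. Other filters, fits of only the groups compared and eBayes without trend cannot change a difference, only its call. The direction of those values was therefore fixed in advance. With median-of-ratios scaling, rescaling of TPM over nuclear protein-coding genes, and quantile normalization, in this order, Dppa4 became -0.55, -0.25 and -0.44 in the XY transition, 0.61, 0.50 and 0.55 for XX minus XY EpiLC, 0.47, 0.42 and 0.49 in the Tet3-/- transition, and -0.70, -0.90 and -0.73 for Tet3-/- minus XX EpiLC. Rescaled TPM also gave calls for the Tet3-/- minus the XX transition in Dppa4 (-1.10) and Dppa5a (-1.55), and Dppa2 in the XX transition was called at -0.64 (median-of-ratios) and -0.65 (quantile). Dppa3 in the XX minus the XY transition was called at 2.78 with a pseudocount of 0.1. Fits of only the groups compared left the differences, by construction, at -1.41 (Dppa2) and -1.48 (Dppa4) for XX minus XY mESC. That of Dppa5a for Tet3-/- minus XX EpiLC likewise stayed at -1.73. The calls were lost in these fits, which hold fewer libraries. Dppa2 for XX minus XY EpiLC lost its call with no filter (0.91) and with copies summed (0.75). The causes of these changes were not tested.

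With each library left out in turn, 252 of 276 values kept direction and side. The ranges of the results that changed were, for Dppa2, 0.87 to 0.94 (XX minus XY EpiLC) and -1.72 to -1.16 (XX minus XY mESC), for Dppa3, -0.47 to 0.13 (Tet3-/- minus XX mESC), 0.62 to 1.86 (XX minus XY mESC) and -0.0755 to 1.16 (XX minus XY transition), for Dppa4, -0.23 to 0.0067 (XX minus XY EpiLC), 1.07 to 1.65 (XX minus XY transition) and -0.18 to 0.34 (XY transition), and for Dppa5a, -0.27 to 0.26 (Tet3-/- minus XX mESC), -1.99 to -1.45 (Tet3-/- minus XX transition) and -0.21 to 0.33 (XX minus XY mESC).

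Whether same-numbered libraries pair was not settled. Correlations of their deviations were -0.05 to 0.30, against -0.34 to 0.28 for libraries of different numbers. With the replicate block no Dppa call changed, and Dppa5a for Tet3-/- minus XX EpiLC was -1.69 (limma adjusted p = 0.00497). For differences between genotypes within a state, the block tied libraries of the same number across genotypes, a match that the labels do not give. Over all genes the block moved the calls between the Tet3-/- and XX transitions from 26 to 1. Of 1386 list counts under alternatives, 201 moved by more than 1.5 times. TPM keeps no depth, so values under 1 TPM carry an unknown counting error.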

Other observations

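Other genes with a Dppa symbol were scarce. The table held 7 genes with such a symbol, the 4 described above included. Of the others, Dppa1 reached 1.12 TPM in XX mESC and 0.0315 in XY mESC, and Dppa5b at most 0.602 TPM in any library. Neither entered the test.

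In both LF2 mESC groups replicate 2 combined the highest Dppa5a with the lowest Dppa3 and Dnmt3l of its group. In XX it had 3145 TPM of Dppa5a, 35.2 of Dppa3 and 3.43 of Dnmt3l, where the other libraries had 11.5 and 16.0 of Dnmt3l. In Tet3-/- it had 2713 TPM of Dppa5a, 31.5 of Dppa3 and 3.49 of Dnmt3l, where the other libraries had 8.68 to 13.0 of Dnmt3l. The XY library with the lowest Dnmt3l, replicate 2 at 3.52 TPM, had instead the highest Dppa3 of its group, 79.6 TPM.

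Tet3-/- EpiLC #3 had 3.06 TPM of Dppa2 together with 6.03 TPM of Tfap2c, 346 of Pou5f1 and 13.5 of Dnmt3l. The mutants #1 and #4 had 0.812 and 0.764 TPM of Tfap2c, 138 and 166 of Pou5f1 and 2.93 and 5.54 of Dnmt3l. Part of this contrast went with scale, as median-of-ratios scaling divided #3 by 1.34 and #1 and #4 by 0.7585 and 0.6579. Scaled, #3 had 258 TPM of Pou5f1 and 10.1 of Dnmt3l, against 182 and 3.87 in #1, the lowest of the group. Scaled #4 lay close below #3 for Pou5f1, and nearer to #3 than to #1 for Dnmt3l. For Tfap2c, #3 had 4.50 scaled against a lowest value of 1.07. Dppa3, Dppa4 and Dppa5a in #3 were 0.595, 13.8 and 194 TPM as deposited. Scaled they were 0.444, 10.3 and 145, each the lowest of the 3 mutant EpiLC libraries.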
